A study of Cicer arietinum with 8 samples.

Results

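The 100 loci described here were those whose expression differed least among the 4 groups of a chickpea root RNA-seq study, that is, between salinity stress and control and between a salinity-sensitive and a salinity-tolerant genotype. They were chosen by their measured FPKM (fragments mapped to a transcript, scaled to its length and to the mapped fragments of the library). Of 30692 loci in the deposited table, 27319 carry a single gene name (Ca_ followed by a number), and 7817 of these had a mean FPKM of at least 20 over the groups. The 100 of highest mean were left out, and among the remaining 7717 loci, called eligible here, the 100 with the smallest ratio of the highest to the lowest group were taken. Leaving out the 100 highest of all loci in the table instead gave the same 100. The spread of a locus is given below as the percentage by which its highest group exceeded its lowest. Since this spread made the choice, it is a description and not a finding.

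The study grew ICCV2, the salinity-sensitive genotype (SS), and JG62, the salinity-tolerant genotype (ST), in a growth chamber. Seedlings 12 days old received 80 mM NaCl on alternate days for 6 days or served as controls, and roots were taken at 18 days according to the sample labels, against 17 days in the series text. Control and salinity-stressed roots of both genotypes made up 4 groups, each with 2 libraries of 49 bp single-end reads. Groups under salinity stress are called stressed SS and stressed ST here, and where the FPKM of a locus is given as 4 values in a row, they are those of SS control, stressed SS, ST control and stressed ST. The deposited table holds a single FPKM for each group, with its libraries combined, so no value has an SD or an n, no difference has a replicate check, and the depth of the libraries is not given in the sources used here. The labelled tissue could not be checked against marker genes, because the table gives no gene function.

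Genes whose transcripts keep a similar level across tissues and treatments are often called housekeeping genes. Well-known plant examples encode actins, tubulins, translation elongation factors and ubiquitins, and such genes serve as internal references in quantitative PCR, where the level of a gene of interest is given relative to them. Some methods of scaling between RNA-seq libraries rest on a related idea, namely that most genes do not change between the samples. Whether any of the well-known reference genes is among the 100 loci was not examined, as no source used here gives a function for their identifiers. The RefSeq table of the chickpea genome matched the names of 0 of the 100 loci and of 0 of all 30692 loci. No sequence is therefore shown.

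The 100 loci spread by 0.501% to 4.17%, with a median of 3.30%, beside a median of 22.5% over all eligible loci. A ratio under 1.02 was found in 12 loci, under 1.03 in 33 and under 1.04 in 94. Just inside the limit, Ca_02525 had FPKM 57.1, 59.4, 58.6 and 59.5. Just outside, Ca_09953 had 50.5, 50.7, 52.1 and 52.6, and its spread, also 4.17% when rounded, was barely wider. There was no gap in the values at the limit, and 172 eligible loci had a ratio under 1.05 and 1082 (14.0%) under 1.1. At the other end, 539 eligible loci (6.98%) had a ratio of at least 2, and 2 loci were listed at 0 in a group.

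**Figure D1:**
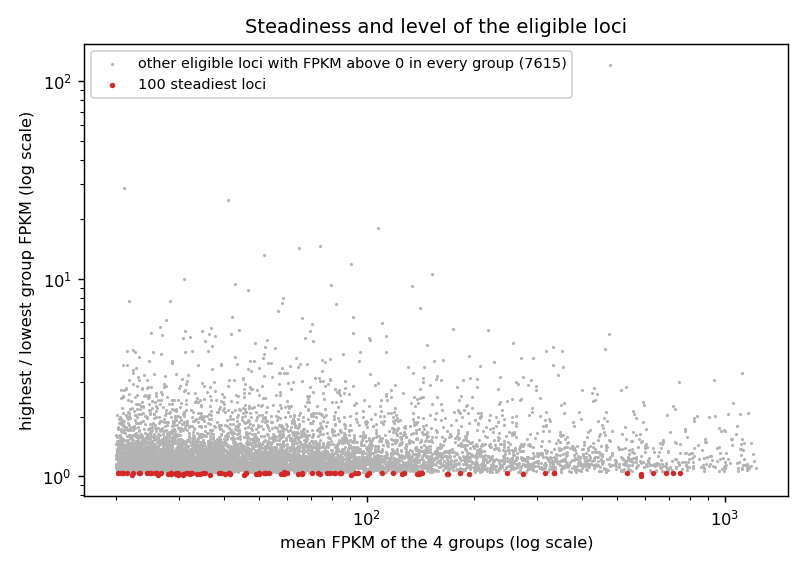
Ratio of the highest to the lowest group FPKM against the mean FPKM of the 4 groups, both on log scales, for each eligible locus with FPKM above 0 in every group. The 100 steadiest loci (red) lie along the lower edge from a mean of 20.2 to 750, and the other 7615 loci (grey) reach a ratio of 121.

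Ca_11726 was the steadiest of the eligible loci, and it was also strongly expressed. Its FPKM was 583, 584, 585 and 582, a spread of 0.501%. Ca_20262 followed at a much lower level, with 26.1, 26.1, 26.0 and 26.1 (0.711%). These were the only eligible loci with a ratio under 1.01. Ca_27000 had FPKM 101, 100.5, 100.5 and 99.8 (1.22%), Ca_03850 had 30.8, 30.8, 30.5 and 30.5 (1.28%), and Ca_03922 had 30.0, 29.6, 29.6 and 29.7 (1.35%). Ca_01946 stood at 90.6, 90.5, 91.5 and 90.2 (1.45%). Among these loci, the highest and lowest groups in FPKM lay farthest apart in Ca_11726, by 2.92, and closest in Ca_20262, by 0.185. Ca_02450 had 36.4, 36.7, 36.4 and 37.0 (1.63%), Ca_15808 had 45.1, 45.6, 45.8 and 45.8 (1.63%), and Ca_10671 had 22.1, 22.3, 22.3 and 21.9 (1.69%). The highest group of Ca_12054 was ST control at 127, and its lowest stressed ST at 124 (1.78%). Ca_11464 went from 28.6 in SS control to 28.1 in stressed ST (1.83%), and Ca_10753 from 271 in SS control to 276 in ST control (1.96%). The next 8 loci by spread were Ca_17178, Ca_01643, Ca_14864, Ca_12882, Ca_16459, Ca_07688, Ca_04342 and Ca_09275, with spreads from 2.03% to 2.18% and mean FPKM from 32.2 to 169. The remaining loci spread by 2.19% to 4.17%.

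The steady loci covered most of the range of expression that the rule allowed. Their mean FPKM had a median of 51.7, beside 47.2 over all eligible loci. When the eligible loci were divided by mean FPKM into 4 classes of even size, 22, 23, 28 and 27 of the 100 fell in the classes from low to high, close to an even division. A mean of at least 500 was found in 7 of them, against 3.44% of the other eligible loci, and a mean under 30 in 24, against 25.9%. The 5 of highest mean were Ca_05560, Ca_08657, Ca_14402, Ca_04286 and Ca_12028. Ca_05560 had FPKM 762, 751, 748 and 739, so that each SS group was above each ST group. Ca_08657 had 708, 735, 708 and 717, and its highest value was that of stressed SS. Ca_14402 had 694, 689, 681 and 670, in which the ST groups were again the lower ones. Ca_04286 had 642, 619, 642 and 626, with both stressed groups below both controls, and Ca_12028 had 579, 581, 587 and 594. The 5 of lowest mean, Ca_09796, Ca_02275, Ca_10541, Ca_11351 and Ca_21535, had means from 20.2 to 21.4, just above the limit of 20. In Ca_09796 the FPKM was 19.9, 20.4, 19.9 and 20.6.

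Steadiness in percent means a very different distance in FPKM at these levels. The highest and lowest groups lay less than 1 FPKM apart in 34 of the 100 loci and at least 10 FPKM apart in 9, the widest being the 27.4 FPKM of Ca_08657. Among the other eligible loci, 0.0394% had a gap under 1 FPKM and 52.8% a gap of at least 10, a difference that follows from the choice by spread. Over all eligible loci, the median ratio was 1.23 in the lowest of these classes, 1.22 in each of the middle ones and 1.23 in the highest. The median spread thus hardly moved with level among the eligible loci.

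No group stood above the others across the list, and the choice by spread left room for differences of only a few percent. The geometric mean FPKM of the 100 loci was 65.4, 65.3, 65.3 and 65.2 in the order of the groups, and their summed FPKM made up between 0.818% and 0.877% of all FPKM in a group. The highest value was in SS control for 33 loci, in ST control for 30, in stressed ST for 19 and in stressed SS for 18. The lowest was in stressed ST for 30, in ST control for 27, in SS control for 25 and in stressed SS for 18. Among the other eligible loci, stressed ST was the most frequent highest group (32.9%) and ST control the most frequent lowest (37.2%). These counts turn on shifts between the columns of a few percent. With median-ratio scaling, in which a column is divided by the median of its ratios to the geometric mean of each locus, the factors were 1.002 in SS control, 0.988 in stressed SS, 0.993 in ST control and 1.019 in stressed ST, and then stressed SS became the highest group of 50 loci and stressed ST that of 1. With upper-quartile scaling, ST control was the highest group of 58 and stressed ST of 0.

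**Figure D2:**
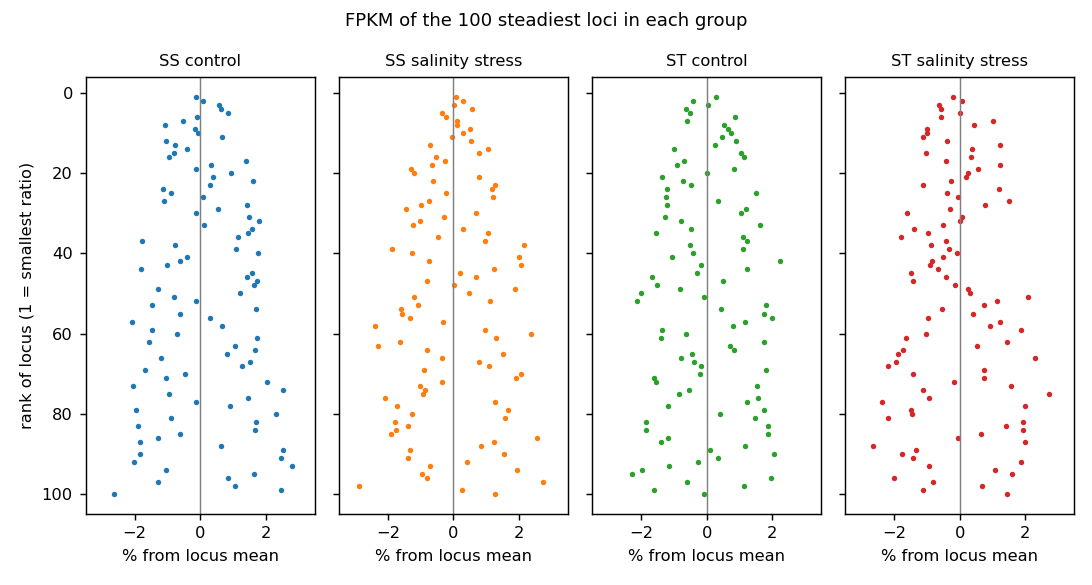
FPKM of each of the 100 steadiest loci in control and salinity stress of the SS and ST genotypes, as the percentage above or below the mean of that locus over the 4 groups, with the loci ordered from the smallest ratio (rank 1, top) to the largest. The points widen toward the limit of 4.17% and lie on both sides of 0 in every group.

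Under salinity stress in the SS genotype, the FPKM of the 100 loci differed from control by between -3.90% and 4.06%, with a median of -0.108%. The methods of the study used a 1.5-fold difference together with a p-value limit, which cannot be applied to the pooled values. The fold alone was reached by 10.7% of all loci with FPKM 1 or more in either group, whereas the choice of steady loci left 0 members. FPKM was higher in stressed SS for 48 members and lower for 52, beside 48.4% higher among all eligible loci. The widest difference upward was in Ca_01950, from 79.8 to 83.1, and next came Ca_02525, whose values are given above. The widest downward were in Ca_01048, from 144 to 138, and in Ca_21535, from 21.9 to 21.1. Ca_01048 stayed at 144 and 143 in the ST groups, so its low value was that of stressed SS alone.

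In the ST genotype the range under salinity stress was -3.89% to 3.94%, with a median of -0.300%. The share of all loci that differed at least 1.5-fold was 13.4%, again with 0 members. FPKM was higher in stressed ST for 45 members, beside 64.7% of all eligible loci, and the median of the other eligible loci was 4.90% higher under stress. Flat FPKM in the ST genotype was thus a little below the typical locus, and the choice by FPKM alone did not take such a shift into account. Ca_05590 went from 75.5 to 78.5 and Ca_09194 from 77.7 to 80.7, the widest differences upward among the members. Downward, Ca_19673 went from 61.2 to 58.8 and Ca_24487 from 249 to 240. In the SS genotype Ca_24487 had 248 in both groups, and so its stressed ST value stood apart from the other 3.

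The stressed group had the higher FPKM in both genotypes for 22 members, the lower in both for 29 and the higher in only 1 genotype for 49, all by differences of a few percent that have no replicate check. Among the other eligible loci the shares were 34.3%, 21.0% and 44.7%. Within 1% under salt in both genotypes were 11 members, against 0.420% of the other eligible loci, a difference the rule fixes in advance.

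Between the genotypes, ST control ran from -3.98% to 3.96% of SS control over the members, and stressed ST from -3.71% to 3.78% of stressed SS. The shares of all loci differing at least 1.5-fold were 16.4% in control and 17.6% under stress, with 0 members in either. FPKM was higher in ST control for 51 members (41.9% of all eligible loci) and higher in stressed ST than in stressed SS for 45 (54.1%). Ca_26870 was the member with the widest difference toward the ST genotype in control, at 50.9 in SS control and 52.9 in ST control, followed by Ca_08393 at 24.5 and 25.4. In the other direction, Ca_15457 had 39.6 in SS control and 38.0 in ST control, and Ca_05590 had 78.6 and 75.5. Under stress the widest differences were in Ca_14645 (50.8 in SS and 48.9 in ST) and Ca_04709 (93.8 and 90.5) toward the SS genotype. Toward the ST genotype they were in Ca_11351 (20.6 and 21.4) and Ca_05869 (45.2 and 46.9).

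To describe the shape of the small movements that were left, the log2 FPKM of each locus was divided into a salt contrast, a genotype contrast and their interaction, which together hold all of its variation among the 4 groups. Salt was the largest contrast in 33 members, genotype in 35 and the interaction in 32. Among the 7615 other eligible loci with FPKM above 0 in every group, genotype was the largest in 48.5%, salt in 30.2% and the interaction in 21.4%, and genotype held 62.1% of the summed squares, against 33.2% in the members. The rule removed every locus with a large contrast of any kind, so this difference from the other loci describes the choice and is not a finding. The near-even division in the members did not hold under other scalings. The interaction was the largest contrast in 51 members after median-ratio and in 68 after upper-quartile scaling.

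**Figure D3:**
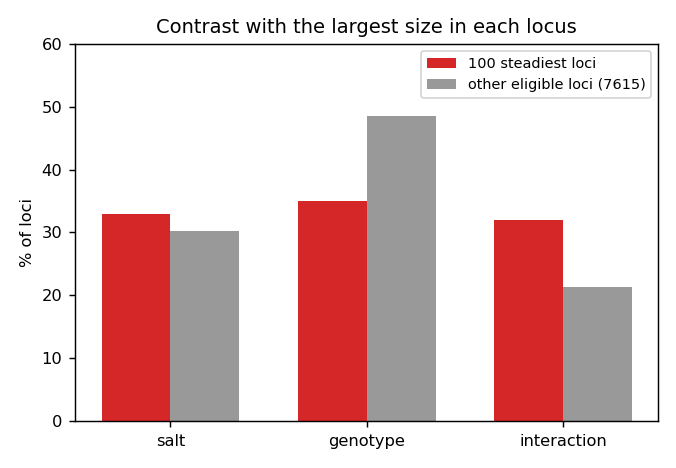
Percentage of loci in which salt, genotype or their interaction was the largest of the 3 contrasts of log2 FPKM, for the 100 steadiest loci (red) and the other eligible loci (grey). The red bars are near-even at 33%, 35% and 32%, and the grey bar for genotype stands at 48.5%. The red loci were chosen by the same FPKM values.

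Single members show these shapes at a scale of 1 to 4%. Ca_06967 followed salt, with FPKM 31.7 in SS control and 31.8 in ST control against 32.7 and 32.9 in the stressed groups. Ca_04286, described above, followed it downward. Ca_10817 followed genotype, with 82.7 in both SS groups and 85.5 and 85.2 in the ST groups. In Ca_08393 the SS groups had 24.5 and 24.6 and the ST groups 25.4 and 25.3. Ca_05869 was crosswise, with 46.8 and 45.2 in the control and stressed SS groups and 45.2 and 46.9 in those of ST. Ca_09194 did the same at a higher level, from 80.5 to 77.8 and from 77.7 to 80.7. Without values of single libraries, none of these shapes can be set against the error of a group.

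The members in which each group lay farthest from the mean of the other 3 were the following. SS control was farthest above in Ca_16878 (131, against 126 in each other group) and Ca_12071 (51.3, against 49.5 to 49.8), and farthest below in Ca_02525 and Ca_16758 (31.0, against 31.5 to 32.0). stressed SS stood highest in Ca_01950 and Ca_08657 and lowest in Ca_01048 and Ca_08684 (307, against 317 in each other group). ST control stood highest in Ca_03384 (113, against 110 in each other group) and Ca_26870 and lowest in Ca_07512 (68.7, against 70.1 to 71.0) and Ca_05590. In Ca_26870 (50.9, 52.7, 52.9 and 51.0) and Ca_05590 (78.6, 76.6, 75.5 and 78.5), however, stressed SS lay beside ST control, so that no single group stood off. stressed ST stood highest in Ca_19650 (27.4, against 26.4 in each other group) and Ca_09985 (67.5, against 65.1 to 65.7) and lowest in Ca_24487 and Ca_04709.

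The rule used all 4 groups, so its steadiness was also read in a group that had no part in the choice. For this, the 100 steadiest loci were chosen anew on 3 groups, which set their limit between 1.86% and 2.03%, and the group left out was set against the mean of the other 3. With SS control left out, 57 of the 100 loci had it within 5% of that mean, beside 36.3% of all eligible loci. For stressed SS the count was 46, beside 31.5%, for ST control 41, beside 30.0%, and for stressed ST 48, beside 34.5%. The median distance from the mean was 4.60%, 5.24%, 6.63% and 5.38% in the chosen loci and 7.48%, 8.73%, 9.03% and 7.99% in the other eligible loci. By the median and by the count within 5%, the group left out was in each case nearer to the others in the chosen loci. For stressed ST this did not hold at small distances: 20% of the chosen loci were within 3%, beside 21.9% of the other eligible loci. In each case the group left out was farther away than the limit of the choice for most of the chosen loci. A distance of 50% or more occurred in 0 of the chosen loci for every group left out and in 1.91% to 5.31% of the other loci. The lists shared 37, 32, 27 and 24 loci with the 100 described here. The ST control column was low in the chosen loci, at a median of -4.14%, and was similarly low in the other eligible loci, at -3.89%. The stressed ST column had a median of 4.10% in its list and 1.53% in the other loci, but 0.950% and -0.890% when the columns were first scaled by median ratio, a step added after the data were seen.

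**Figure D4:**
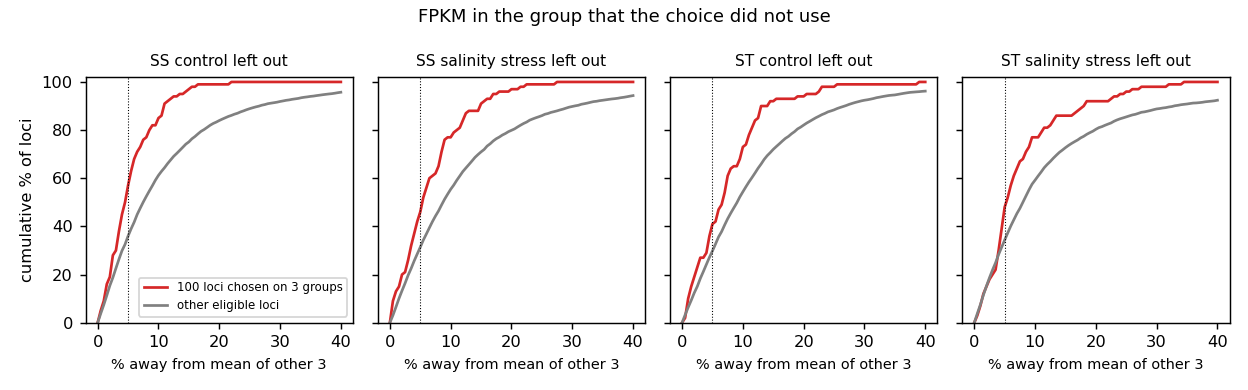
Cumulative percentage of loci by the distance (in %) of the left-out group from the mean of the other 3 groups, for the 100 loci chosen on those 3 groups (red) and the other eligible loci (grey), with 1 panel per group left out. At 5% (dotted line) the red curves stand between 41% and 57% and the grey curves between 29.8% and 36.0%.

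Some loci that were flat in 3 groups departed clearly in the fourth. Ca_12684 stood at 79.8, 79.9 and 80.0 in the first 3 groups, a spread of 0.234%, and 54.5 in stressed ST. Ca_03693 went the other way, with 26.6, 26.4 and 26.2 in those groups and 35.5 in stressed ST. Ca_19172 had 31.1, 31.5 and 31.5 in the other groups and 19.1 in ST control, the widest departure of the 4 lists at -39.0%. Ca_12065 had 28.4 in ST control, against 22.6 to 22.9 elsewhere. stressed SS stood out in Ca_07173, at 53.4 against 41.6 to 42.1, and in Ca_05899, at 123 against 99.9 to 101. SS control was low in Ca_09741, at 75.9 against 96.0 to 97.3, and in Ca_08235, at 377 against 448 to 454.

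The choice was also made on the groups of 1 genotype and read in the ratio of the other genotype, a measure unlike the distance from a mean of 3 groups. The 100 loci with the smallest change under salt in the SS genotype, all within 0.201%, had a median spread of 8.68% in the ST genotype, beside 9.84% in the other eligible loci. Their ST ratio was under 1.05 in 30 of 100, a share close to the 28.8% of all eligible loci. The 100 flattest loci in the ST genotype, all within 0.236%, had a median spread of 5.60% in the SS genotype, beside 8.26%, and a ratio under 1.05 in 47, beside 33.2%. In 2 of them the SS groups differed at least 1.5-fold, beside 3.02% of the other loci, whereas 0 loci of the first list differed as much between the ST groups, beside 6.03%. Each of these lists shared 8 loci with the 100 described here.

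Membership of the list depended far more on the scaling of the columns than on the arithmetic of the ratio. With median-ratio scaling 35 of the 100 stayed and with upper-quartile scaling 23, whereas 90 stayed when the coefficient of variation replaced the ratio, and 99 and 98 with pseudocounts of 0.1 and 1. Such pseudocounts are small beside a mean FPKM of at least 20 and could displace few loci. The factors of both scalings differed between groups by only a few percent, so the loci that left under them could not become highly variable. After median-ratio scaling all 100 still had a ratio under 1.1 and the widest spread was 7.12%, and after upper-quartile scaling the widest was 8.16%. Under both scalings, both pseudocounts and the coefficient of variation, 19 of the 100 stayed throughout. They include Ca_20262, Ca_03922, Ca_02450, Ca_17178, Ca_16459, Ca_07688 and Ca_09275 from the 20 steadiest. The others were Ca_06987, Ca_02303, Ca_04921, Ca_13121, Ca_05866, Ca_12683, Ca_12843, Ca_26247, Ca_07512, Ca_09985, Ca_19650 and Ca_11351. After median-ratio scaling the spread of Ca_07688 was 1.22% and that of Ca_11351 1.17%, below their 2.14% and 3.78% in the deposited FPKM. Ca_11726, the steadiest locus, spread by 3.44% after that scaling. Ca_20262, Ca_03922 and Ca_02450 were the 3 loci that also stayed in each of the lists chosen on 3 groups. Their spreads over all 4 groups, 0.711%, 1.35% and 1.63%, were already under the smallest limit of those lists, 1.86%. Leaving out a group cannot widen a spread, so their place in those lists was fixed in advance and is not a further check.

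**Figure D5:**
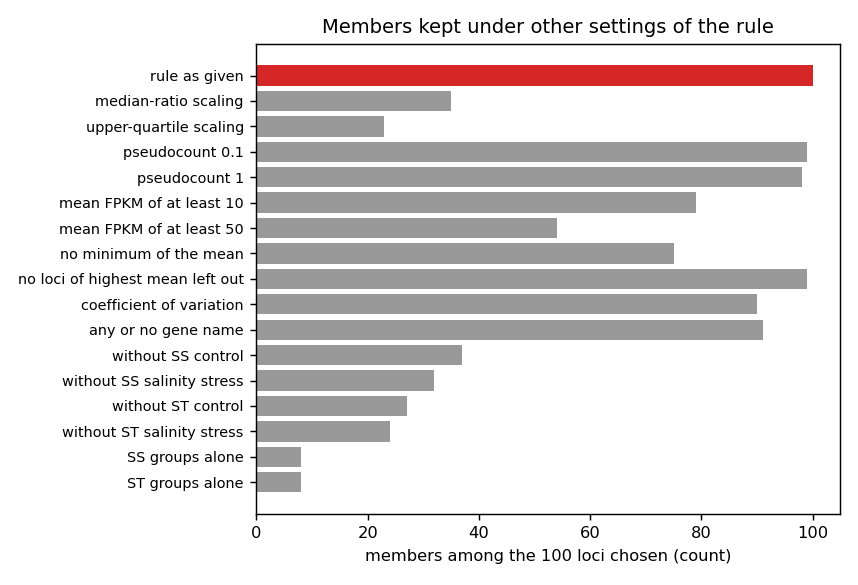
Number of the 100 steadiest loci that were again among the 100 chosen, for the rule as given (red) and for each other setting (grey). The count was 90 or more for the pseudocounts, the coefficient of variation, the wider choice of gene names and the inclusion of the highest loci, and 8 to 37 when groups were left out. The wider choice of names and the inclusion of the highest loci only add loci, and the pseudocounts are small beside the FPKM, so these settings could displace few members.

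In 3 members the gene name also stands on another locus, as it does for 155 eligible loci (2.01%). The other locus had a wider spread each time, which the choice of the smallest spreads made likely. Its ratio was 1.19 in Ca_01624 and 1.31 in Ca_24169, beside an eligible median of 1.22. Ca_03850, among the 5 steadiest, had FPKM 30.8, 30.8, 30.5 and 30.5 at XLOC_010912. At XLOC_010911, the locus numbered just before it, the same name had 27.7, 34.4, 15.9 and 20.5, a ratio of 2.16 with both ST groups below both SS groups. Ca_24169 spread by 3.15% at XLOC_017154 and by 31.5% at XLOC_019075, where SS control was lowest at 39.8 and ST control highest at 52.3. Ca_01624 spread by 3.55% at XLOC_013616 and by 19.3% at XLOC_015276. Reads of a gene could be split between such loci, so the values of these 3 names are uncertain and hold for the locus, not for the gene as a whole.

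For scale, the eligible locus with the largest ratio, Ca_14770, had FPKM 769, 504, 6.34 and 636, with ST control far below the rest. Genes that the study singled out on these same samples for a response to salt were far from steady, which their choice ensured. Ca_09442, a homolog of the Arabidopsis transcription factor WRKY33, went from 52.4 to 21.4 under salt in SS and from 62.6 to 80.1 in ST. Ca_25099, which encodes FRD3, a MATE family efflux transporter, went from 26.5 to 8.89 in the SS and from 10.4 to 1.39 in the ST genotype. Ca_22105, a homolog of the leucine-rich repeat protein PIRL6, went from 45.8 to 86.4 and from 41.0 to 101. The widest change between any groups in the 100 steady loci, 4.17%, is small beside these.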

How the data were processed

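Root RNA of 8 libraries, 2 in each of 4 groups, was sequenced as 49 bp single-end reads. Per the labels and the methods of the study, the authors removed adapters and reads under a Phred score of 20 with NGS QC Toolkit, mapped the rest on the Kabuli chickpea genome with TopHat2 2.1.1, and assembled and quantified transcripts with Cufflinks and Cuffdiff 2.2.1 (the methods give another Cuffdiff version). The deposited table holds FPKM that the authors derived for each locus, the libraries of a group combined. The scaling between libraries is not given in the sources used here. No test, SD or interval can be had from 1 value per group, and the depth is not given in the sources used here.

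Loci were chosen and described on the FPKM as deposited, without a pseudocount, with Python 3.11.15, pandas 2.3.3 and numpy 2.4.6, and drawn with matplotlib 3.10.9. The choice of steady loci, the scaling factors and the contrasts were first tested on simulated or constructed values. The members, rule and lists were chosen with earlier results of these data known. Named were the 20 steadiest members, those at the limit and just outside, the 5 of highest and of lowest mean, the extremes of each comparison, contrast and group, those whose name stands on another locus, the farthest loci of the lists on 3 groups, the widest eligible loci, and genes named in the paper. Alternatives were 2 scalings, pseudocounts, other limits of the mean, the coefficient of variation, other gene names, left-out columns, a 2-fold threshold and other FPKM minimums.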

Additional observations from a re-analysis of the deposited data

How the results depend on the processing

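No paired analysis was possible because each group has 1 column in which both libraries are combined. Of the 100 members, 35 stayed in the list with median-ratio scaling and 23 with upper-quartile scaling. With a mean FPKM of at least 50, 54 stayed. A higher minimum only takes loci away, so every member that still met it had to stay, and the others left by their level alone. Without SS control 37 stayed, without stressed SS 32, without ST control 27 and without stressed ST 24, and 8 stayed on the SS columns alone and 8 on the ST columns alone. With the list kept, the median ratio of 1.03 became 1.04 with median-ratio and 1.05 with upper-quartile scaling. The highest group was SS control in 20 and 9 members under these scalings, stressed SS in 50 and 33, and stressed ST in 1 and 0. It was ST control in 58 with upper-quartile scaling. That scaling left genotype as the largest contrast in 10 members, and the interaction was the largest in 51 and 68. The median mean FPKM of the list was 36.0 with a minimum of 10, 90.7 with a minimum of 50 and 34.6 with none. Over all loci, a 2-fold threshold gave 872 loci for salt in SS, 1025 for salt in ST, 1458 for genotype in control and 1692 for genotype under salt. Without an FPKM minimum the counts were 4119, 4723, 5310 and 5635, and with a minimum of 5 they were 1035, 1493, 1959 and 2233. The cause of these differences was not tested. Chosen after seeing the data, median-ratio scaling before the choice on 3 groups gave 52, 43, 36 and 48 loci within 5% in the group left out. With 1 pooled value per group, a spread of a few percent cannot be told apart from the error of the libraries.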

Other observations

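Loci outside the rule were also looked at for steadiness. Of the 100 loci of highest mean FPKM, 1 spread by no more than the limit of the list. This was Ca_21248, with FPKM 2079, 2123, 2089 and 2046 (SS control, stressed SS, ST control and stressed ST). The median ratio of these 100 loci was 1.28, above the 1.22 of the eligible loci. Among 729 loci without a gene name and with a mean FPKM of at least 20, the median ratio was 1.35, and 6 (0.823%) were within the limit, against 1.30% of the eligible loci. The steadiest of them were XLOC_001645, with 22.2, 22.3, 22.2 and 22.0 in the same order of groups, and XLOC_009286, with 189, 187, 190 and 190 (written to 3 digits). Of 352 loci that carry several gene names, 3 were within the limit, among them XLOC_008584 (Ca_01025 and Ca_01027) with 158, 161, 158 and 161. These loci were picked after their values were seen.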
